A study of Mus musculus with 4 samples.

Results

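The Schlafen genes of the mouse are a cluster of related genes on chromosome 11, and the 7 described here are Slfn1, Slfn2, Slfn3, Slfn4, Slfn5, Slfn8 and Slfn9. They were taken by gene identifier from tables that list 50600 genes, and all 7 were found. The RNA came from primary cells of the mouse strain C57BL/6NJ that carry the cell type label regulatory T cell, the CD4+ T cells that restrain immune responses. There were 4 libraries with replicate numbers 1 to 4 in the labels, in 1 group, so no condition could be compared. No genetic change or agent is named, age and sex are not known, and 1 donor record stands behind 4 biosamples. The labels point to a CD4 T cell differentiation protocol, and the headers in the deposited files carry the words activated and 00h. The sources used here do not say whether the 4 libraries came from separate mice or cultures, so their spread may be technical.

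As background, the family is named from the German word for sleep, after the growth arrest that Slfn1 caused when it was overexpressed in thymocytes. All members share an N-terminal core that can bind tRNA and, in several members, cut it. The short proteins of group I (Slfn1 and Slfn2) hold little more than that core, group II (Slfn3 and Slfn4) is of intermediate length, and group III (Slfn5, Slfn8 and Slfn9) adds a helicase-like C-terminal part. Mice that lack working Slfn2 have T cells that do not hold quiescence, the resting state of a lymphocyte before antigen, and die on activation. Slfn2 is known to shield tRNA from cleavage under oxidative stress, and many Schlafen genes respond to type I interferon.

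Total counts per library were 25573253, 62090744, 23000465 and 61943411 fragments for replicates 1 to 4. Levels are given as TPM, the length-corrected share of all transcripts, computed from the count and the exon length of each gene, and a gene is called detected at 1 TPM or more in all 4 libraries. The T cell genes Trac (3435 ± 137 TPM, SD, n = 4), Cd4 (1067 ± 31.4 TPM), Cd3d (794 ± 22.5 TPM), Cd3e (485 ± 20.1 TPM) and Cd3g (431 ± 16.1 TPM) were all high. Among 8 regulatory T cell markers, Foxp3, the lineage's defining factor, was low at 8.28 ± 0.867 TPM. Tnfrsf18 stood at 107 ± 3.80, Tnfrsf4 at 33.5 ± 6.35, Ikzf4 at 9.22 ± 1.18, Ctla4 at 7.77 ± 0.959, Il2ra at 5.52 ± 2.76 and Ikzf2 at 1.34 ± 0.194 TPM. Lrrc32, a surface protein of activated regulatory T cells, was below detection at 0.355 ± 0.131 TPM. In RNA from bulk samples, fewer cells of a type and less RNA per cell cannot be told apart.

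The 7 genes lie within 263.8 kb of chromosome 11 (82951349 to 83215154, GRCm38), 5 on the plus strand and 2 on the minus strand. From low to high coordinate, Slfn5 (82951349 to 82964840, plus strand) is followed by Slfn9 (82978390 to 82991830, minus strand) and Slfn8 (83002158 to 83020810, minus strand). Slfn2 (83065112 to 83070678), Slfn1 (83116849 to 83122670), Slfn4 (83175186 to 83190216) and Slfn3 (83191330 to 83215154) follow, all on the plus strand. The longest annotated coding sequences hold 337 codons in Slfn1 and 378 in Slfn2, 602 in Slfn4 and 640 in Slfn3, and 884 in Slfn5, 910 in Slfn8 and 910 in Slfn9, stop codon not included. Aligned coding sequences were 92.7% identical between Slfn3 and Slfn4 and 92.7% identical between Slfn8 and Slfn9. Slfn1 and Slfn2 were 71.9% identical, and Slfn5 was 63.2% identical to Slfn8.

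Windows of 120 bases before the annotated starts are shown for the 4 genes of groups I and II, because all 4 hold an identical run of 9 bases, written in capitals. They are RefSeq promoter sequences of build GRCm38.p6, 5′ to 3′, at chr11:83116700-83116819, chr11:83064992-83065111, chr11:83191210-83191329 and chr11:83175066-83175185, all on the plus strand.
Slfn1: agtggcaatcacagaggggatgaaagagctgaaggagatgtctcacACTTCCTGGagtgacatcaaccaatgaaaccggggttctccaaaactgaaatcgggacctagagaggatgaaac
Slfn2: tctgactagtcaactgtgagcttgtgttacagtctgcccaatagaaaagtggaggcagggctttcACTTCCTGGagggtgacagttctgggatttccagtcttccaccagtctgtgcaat
Slfn3: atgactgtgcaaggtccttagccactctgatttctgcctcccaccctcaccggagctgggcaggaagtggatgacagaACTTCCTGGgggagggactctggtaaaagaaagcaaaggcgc
Slfn4: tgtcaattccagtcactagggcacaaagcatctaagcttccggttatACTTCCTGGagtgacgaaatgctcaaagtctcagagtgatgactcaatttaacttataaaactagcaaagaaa

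The shared run begins at position -74 of Slfn1, -55 of Slfn2, -42 of Slfn3 and -73 of Slfn4, counted from the RefSeq start. For Slfn2, Slfn3 and Slfn4 that start is the gene start given above. For Slfn1 it is 83116820, which is 29 bases before the gene start given above. The run was found by comparing these windows, so its frequency is given as a description. Of 32851 RefSeq promoters, each 250 bases before to 50 after a start, 277 (0.843%) hold ACTTCCTGG on either strand. In Slfn1, Slfn2 and Slfn4 the identity runs on to ACTTCCTGGAG, which 24 promoters hold (0.0731%). The run contains the Ets core letters (GGAAG, read on the other strand), which are common and occur in 71.4% of promoters. Over the whole promoter records the sequences were less alike than the coding sequences: Slfn1 and Slfn2 were 57.5% identical over 266 aligned bases, and Slfn3 and Slfn4 were 56.3% identical over 252.

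The windows of Slfn8 and Slfn9 are shown because they are near copies that both hold the core of an interferon response element, the letters GAAANNGAA read on the other strand, in capitals. They lie at chr11:83020811-83020930 and chr11:82991831-82991950 and are written 5′ to 3′ along the minus strand.
Slfn8: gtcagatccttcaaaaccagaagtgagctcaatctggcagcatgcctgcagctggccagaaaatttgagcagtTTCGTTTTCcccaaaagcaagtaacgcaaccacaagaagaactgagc
Slfn9: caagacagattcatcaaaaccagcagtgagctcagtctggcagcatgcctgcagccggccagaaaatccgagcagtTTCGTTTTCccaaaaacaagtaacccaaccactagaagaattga

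The capitals begin at position -47 in Slfn8 and -44 in Slfn9. The promoter record of Slfn5 held the same core at 2 places, as GAAAAAGAA at -155 and TTCTCTTTC at -132. These positions are counted from a RefSeq start at 82952102, which lies inside the Slfn5 gene record (82951349 to 82964840). The 120 bases before that start overlap annotated exons of other Slfn5 transcripts. The core was thus present in 3 of the 7 genes (Slfn5, Slfn8 and Slfn9, the whole of group III), against 8.56% of all promoters, searched on both strands. The letters of a gamma-activated site (TTCNNNGAA) were in none of the 7 genes and in 8.30% of all promoters. Those of an AP-1 site (TGANTCA) were in Slfn4 alone, as TGACTCA at -34, and in 7.81% of all promoters. The promoters of Slfn8 and Slfn9 were 84.9% identical over 292 aligned bases. A match of letters is a description of the window and shows no binding.

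Group I held most of the family's RNA. Slfn2, the member tied to T cell quiescence, was the most abundant, at 866, 907, 878 and 823 TPM in replicates 1 to 4, with a mean of 868 ± 34.8 TPM (SD, n = 4). Slfn1, the gene that gave the family its name, stood at 504, 518, 477 and 425 TPM, with a mean of 481 ± 40.6. Their ranges did not overlap. Slfn2 ranked 119 and Slfn1 ranked 247 among 21764 protein-coding genes by mean TPM. Together they made up 82.9% ± 0.843 of the summed TPM of the 7 genes, which was 1629 ± 101 TPM. The share was 62.2% ± 1.48 of the raw counts, since the transcripts of group III are longer.

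Group III held the next pair of genes and 1 low gene. Slfn8, a long member with the helicase-like part, was at 146, 158, 145 and 123 TPM (mean 143 ± 14.8). Slfn5, the interferon-inducible long member encoded at the other end of the cluster from Slfn3, was at 129, 125, 134 and 102 TPM (mean 123 ± 14.1). The ranges of Slfn8 and Slfn5 overlapped. Slfn9, the near copy of Slfn8, was far lower, at 6.74, 6.51, 5.83 and 4.58 TPM (mean 5.91 ± 0.973), and did not overlap with either.

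Group II was low. Slfn3, a member studied in the gut epithelium, was at 8.72, 7.75, 8.43 and 6.84 TPM (mean 7.93 ± 0.837). Slfn4, a member best known from macrophages and other myeloid cells, was below detection, at 0.521, 0.245, 0.378 and 0.310 TPM (mean 0.363 ± 0.118), from 15, 17, 10 and 22 fragments. Thus 6 of 7 members were detected, against 45.7% of protein-coding genes. The pairs that are 92.7% identical in coding sequence therefore had unlike levels: Slfn8 was above Slfn9 and Slfn3 was above Slfn4 in every library.

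**Figure D1:**
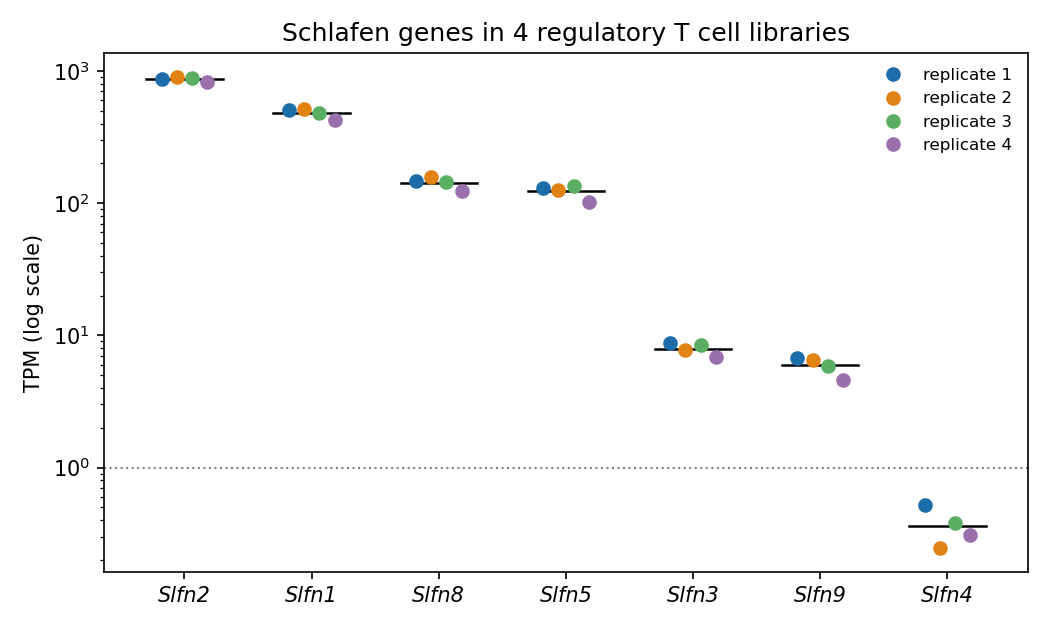
TPM (log scale) of the 7 Schlafen genes, ordered by mean, with 1 point for each of the 4 libraries and a bar at the mean; the dotted line marks 1 TPM. Slfn2 and Slfn1 stand highest, Slfn8 and Slfn5 overlap, and Slfn4 alone lies below 1 TPM in all 4 libraries.

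The order of the members was the same in all 4 libraries. Slfn2 exceeded Slfn1 by 0.86 ± 0.08 on the log2 scale (1.81-fold), Slfn1 exceeded Slfn8 by 1.75 ± 0.04 (3.37-fold) and Slfn8 exceeded Slfn5 by 0.22 ± 0.10 (1.17-fold). Slfn5 exceeded Slfn3 by 3.95 ± 0.06 (15.4-fold), Slfn3 exceeded Slfn9 by 0.43 ± 0.15 (1.35-fold) and Slfn9 exceeded Slfn4 by 4.06 ± 0.46 (16.7-fold). For each of the 6 neighbouring pairs the exact two-sided sign-flip permutation test gave p = 0.125, which is the smallest it can give with 4 libraries, and the Benjamini-Hochberg adjusted p was 0.125. The design thus cannot reach a threshold of 0.05. Without length correction the counts put Slfn5 above Slfn8 and Slfn9 above Slfn3, by 0.41 and 0.37 on the log2 scale, so the order within those pairs depends on the exon lengths.

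Reads that could not be placed in a single gene were left out of the counts, which bears on the near copies. Of all 50-base stretches in the transcripts, 0.606% in Slfn1 and 4.27% in Slfn2 also occur in another gene, on either strand. The shares were 16.0% in Slfn3, 11.3% in Slfn4, 11.1% in Slfn5, 14.6% in Slfn8 and 11.9% in Slfn9. In Slfn5 most of the share, 7.38% of its stretches, lies in the antisense gene Slfn5os over the same bases. Counting by strand keeps those fragments, so they are not lost to a near copy. Levels of Slfn3, Slfn4, Slfn8 and Slfn9 may therefore be understated. So may those of Slfn2 and Slfn5, to a smaller extent, and that of Slfn1 least. Differences between near copies are uncertain to that extent. With all shared stretches taken off the lengths, those in Slfn5os included, the log2 ratio of Slfn8 to Slfn5 was 0.28. That of Slfn3 to Slfn9 was 0.50, and both kept their direction.

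Other genes of the family and of the locus framed these levels. Slfn10-ps, a transcribed pseudogene next to Slfn8, was detected at 13.04, 15.6, 15.5 and 12.8 TPM (mean 14.2 ± 1.54), above Slfn3 and Slfn9 in every library. Of its 50-base stretches, 19.7% occur in other genes, so its level is uncertain too. Slfn14, whose protein cuts RNA at the ribosome and is known from red cells and platelets, had no count in any library, where 3 counts would give at most 0.121 TPM. Slfnl1, a distant relative outside the cluster, was below detection at 0.217 ± 0.124 TPM. The antisense gene Slfn5os covers 8.84% of the exon bases of Slfn5 and had 1, 3, 3 and 8 fragments, at most 0.0690% of those of Slfn5. The antisense gene Gm20234 lies across Slfn2, sharing no exon base with it, and had 38, 88, 40 and 133 fragments, from 0.333% to 0.542% of those of Slfn2. Counting used the strand, per the file headers, so these were counted apart.

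**Figure D2:**
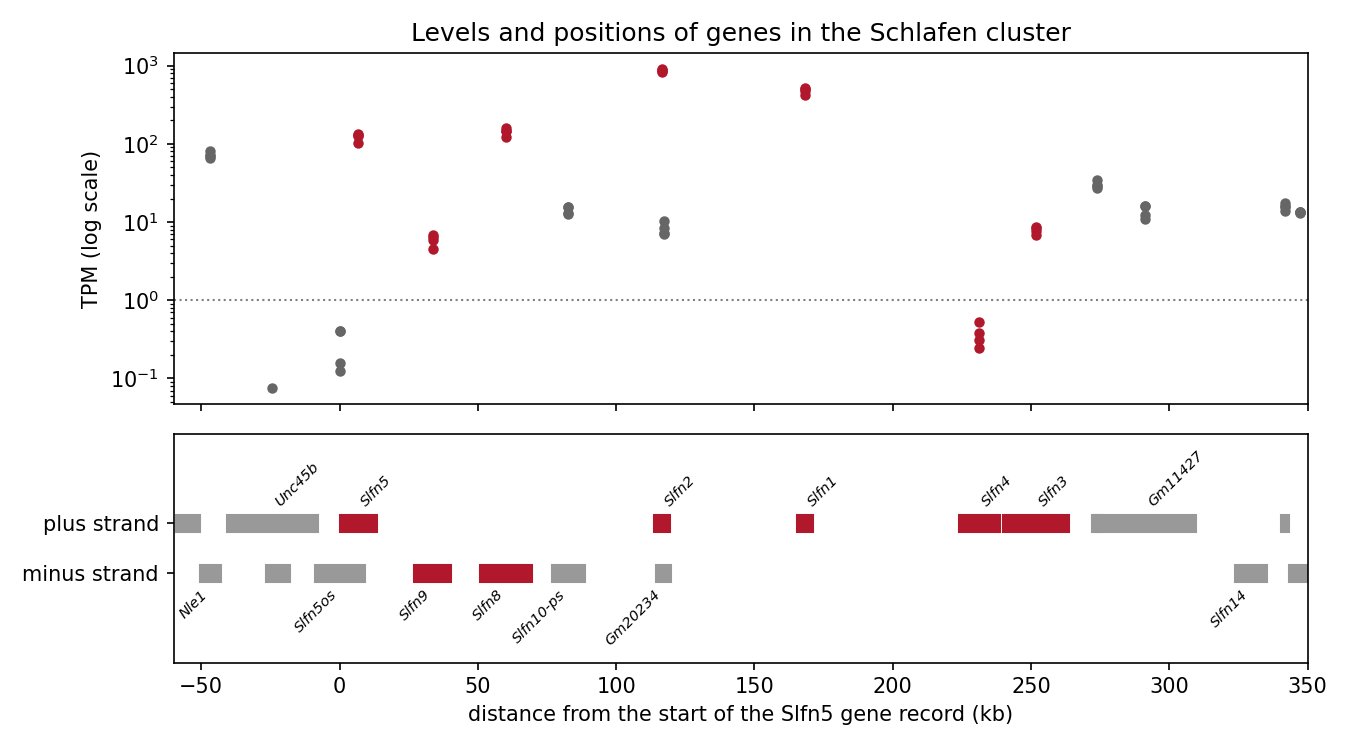
TPM (log scale, upper panel, 1 point per library, values of 0 not drawn) and gene bodies by strand (lower panel) along the Schlafen cluster, by distance in kb from the start of the Slfn5 gene record, with the 7 members in red and neighbouring genes in grey. Slfn2 and Slfn1 in the middle of the cluster are the highest, and Slfn4 lies between Slfn1 and Slfn3 with the lowest level of the members.

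By root-mean-square difference of log2(TPM + 0.1) over the 4 libraries, the protein-coding genes most like Slfn2 were Rps27a (0.074, mean 874 TPM), Itm2b (0.085, mean 906 TPM) and Msn (0.086, mean 907 TPM). Those most like Slfn1 were Cd3e, a chain of the T cell receptor complex (0.060, mean 485 TPM), Ddx17 (0.094, mean 478 TPM) and Rasa3 (0.095, mean 482 TPM). This compares levels and their spread over libraries of 1 cell type only, among 21763 genes.

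Slfn2 is known for its part in quiescence, and 28 other genes of quiescence in lymphocytes were examined beside it. Of these, 26 were detected (92.9%), against 45.7% of protein-coding genes. The median over all 28, detected or not, was 104.8 ± 2.96 TPM (SD, n = 4). It was 0.387 ± 0.0236 TPM over all 21764 protein-coding genes, most of which were not detected. Over the 9948 detected protein-coding genes, the closer comparison, it was 33.2 ± 0.685 TPM. Dgka, a diacylglycerol kinase that dampens T cell receptor signals, was at 1602 ± 85.3 TPM, the transcription factor Klf2 at 731 ± 56.5 TPM and the mRNA decay factor Zfp36l2 at 644 ± 53.6 TPM. Slfn2 lay between Dgka and Klf2. Klf4 (0.867 ± 0.355 TPM) and Foxj1 (0.213 ± 0.175 TPM) were below detection.

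Among 22 genes of cell division, 16 were detected (72.7%), against 45.7% of protein-coding genes. The median over all 22 was 6.74 ± 0.363 TPM. The D-type cyclin Ccnd2 was the highest at 247 ± 11.7 TPM, followed by the growth factor-responsive transcription factor Myc at 135 ± 10.1 and the D-type cyclin Ccnd3 at 130 ± 7.59 TPM. Bub1, a checkpoint kinase of mitosis, was at 0.343 ± 0.221 TPM and Ccnd1, the third D-type cyclin, at 0.139 ± 0.0425 TPM.

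Among 12 genes of tRNA cleavage and its protection, 7 were detected (58.3%), against 45.7% of protein-coding genes. The median over all 12 was 9.21 ± 0.332 TPM. Nsun2, a methyltransferase that modifies tRNA, was at 89.8 ± 3.81 TPM, the ribonuclease inhibitor Rnh1 at 83.5 ± 1.53 TPM and Elac2, which trims tRNA precursors, at 65.5 ± 3.67 TPM. Angiogenin, the ribonuclease that cuts tRNA under stress, was near or at 0: Ang had 1, 2, 0 and 1 fragments, and Ang2, Ang4, Ang5 and Ang6 had none in any library.

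Interferon signalling genes were all present, 15 of 15 detected, against 45.7% of protein-coding genes, with a median of 103.3 ± 7.92 TPM. The kinase Jak1 was at 644 ± 27.9, the transcription factor Irf1 at 236 ± 15.9 and the inhibitor Socs3 at 206 ± 18.9 TPM, while the receptor chain Ifnar2 (58.2 ± 1.91 TPM) and Irf2 (52.5 ± 2.89 TPM) were the lowest. Of 28 interferon-induced genes, 27 were detected (96.4%), against the same 45.7%. The median over all 28 was 37.2 ± 9.50 TPM. Ifi27l2a was at 724 ± 111, Ifi47 at 316 ± 23.9 and Bst2, which tethers budding virus, at 201 ± 33.0 TPM. Mx1, an antiviral GTPase, was at 2.73 ± 1.48 TPM, and Ifi44 was below detection at 1.32 ± 0.822 TPM.

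Of the 7 Schlafen genes, 0 passed a test of variation between the libraries, which is near the share of all genes that passed (1.13%). In edgeR's fit with 1 common mean, tested by the residual deviance of each gene, 142 of 12554 genes (1.13%) varied beyond the trended dispersion at an adjusted p under 0.05. Of the 7 members 0 did, and none had an unadjusted p under 0.05. The lowest unadjusted p of a member in this fit was 0.0975, for Slfn5, and its adjusted p was 1.00. In the edgeR fit without replicate 2, Slfn5 had an unadjusted p of 0.0459 and an adjusted p of 0.9999. With DESeq2's fitted dispersion 119 genes passed and again 0 members, with 1 member, Slfn5, at an unadjusted p of 0.0127 and an adjusted p of 0.524. These p-values measure the spread between 4 libraries of 1 group.

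Of the 28 interferon-induced genes, 14 varied in the edgeR fit (Bst2, Ifi27l2a, Ifi44, Ifit1, Ifit3, Irf7, Isg15, Mx1, Oas2, Oas3, Oasl1, Oasl2, Usp18 and Xaf1). Mx1 was at 4.27, 1.75, 3.70 and 1.21 TPM in replicates 1 to 4, high in replicates 1 and 3 and low in replicates 2 and 4. The median of the 28 genes was 46.9, 30.4, 43.6 and 27.8 TPM in the same order. Not every gene followed it: Ifi44 was at 2.43, 1.35, 1.03 and 0.473 TPM. Ifi47, Gbp2, Ifit2, Irgm1, Eif2ak2 and Ifih1 were highest in replicate 2. Replicates 1 and 3 also had the fewest fragments (25573253 and 23000465, against 62090744 and 61943411 in replicates 2 and 4). This pattern therefore cannot be told apart from depth. The number of these genes that varied fell to 5 without replicate 1, 9 without replicate 2 and 7 without replicate 4, and was 11 without replicate 3. None of 27 quiescence genes, 20 division genes, 15 interferon signalling genes and 7 tRNA genes tested varied. Of 8 regulatory T cell markers 1 varied, Il2ra, and of 5 B cell markers tested all 5 did.

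Among detected protein-coding genes over 5 TPM (8837 genes), the median SD was 6.31% of the mean. Slfn2 was steadier than most of these, at 4.01%, the 20.4th percentile. Most of these genes are less abundant than Slfn2, so the comparison is not matched for level. Nearer its level, among genes of the lists, Cd4 (1067 TPM) stood at 2.94%, Cd3d (794 TPM) at 2.83% and Klf2 (731 TPM) at 7.73%. The genes named above as most like Slfn2 had SDs of 44.0 TPM (Rps27a), 39.1 TPM (Itm2b) and 51.0 TPM (Msn). That of Slfn2 was 34.8 TPM. Slfn1 stood at 8.45%, Slfn8 at 10.3%, Slfn3 at 10.5%, Slfn5 at 11.5% and Slfn9 at 16.5%, which are the 72.6th, 84.6th, 85.5th, 89.0th and 96.4th percentiles. The counts behind Slfn3 and Slfn9 were low, from 192 to 463 and from 232 to 681 fragments. The median was 17.8% for 26 detected protein-coding genes of the interferon-induced list and 5.12% for 26 quiescence genes.

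**Figure D3:**
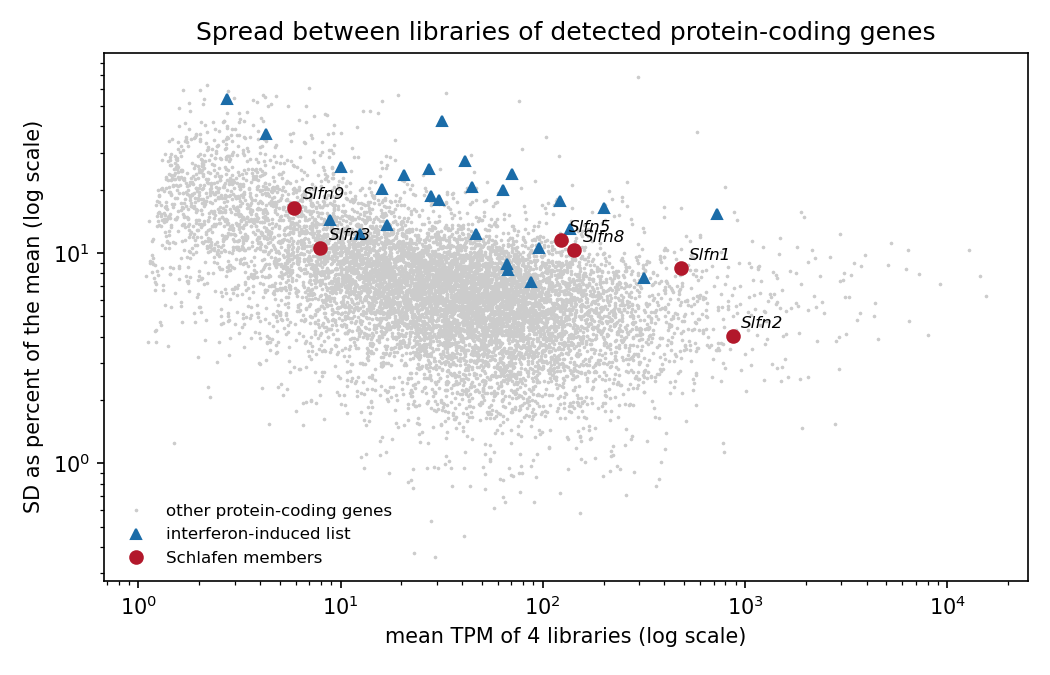
SD between the 4 libraries as a percent of the mean (log scale) against mean TPM (log scale) for 9948 detected protein-coding genes, with 6 detected Schlafen genes in red and interferon-induced genes as blue triangles. Slfn2 lies low in the cloud at 4.01%, Slfn9 high at 16.5%, and interferon-induced genes reach 54.2% (Mx1).

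The lowest TPM of 6 of the 7 members was in replicate 4, and that of Slfn4 was in replicate 2. Replicate 4 was the lowest library for 30.3% of detected protein-coding genes, for 20 of 28 interferon-induced genes and for 11 of 28 quiescence genes. It was also the lowest for 1 of 5 T cell markers and for 6 of 8 regulatory T cell markers (Foxp3, Ctla4, Il2ra, Ikzf2, Ikzf4 and Lrrc32), whose summed TPM was 168, 170, 191 and 163 in replicates 1 to 4. Replicate 4 lay below the mean of the other 3 libraries by 28.1% in Slfn9, 21.05% in Slfn5, 18.8% in Slfn4, 18.2% in Slfn8, 17.6% in Slfn3, 14.8% in Slfn1 and 6.86% in Slfn2. Slfn10-ps lay 13.2% below. The 6 members were the same number under scaling by library total, by median-ratio size factors and by the share of protein-coding TPM, where replicate 4 was lowest for 25.6%, 20.1% and 31.0% of genes. The members share a locus and some sequence and are not independent of each other, and no member passed the test of variation.

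Markers of other cell types were measured as well, and those of B cells varied between the libraries. The summed TPM of 6 B cell markers was 36.8, 23.7, 27.0 and 10.97 in replicates 1 to 4, lowest in replicate 4 for all 6, with 3 of 6 detected. Cd79b had the highest mean at 9.31 ± 3.78 TPM, followed by Cd79a (8.61 ± 3.90), and Pax5 (1.03 ± 0.534) and Ebf1 (0.154 ± 0.0914) were the lowest. The summed TPM of 10 monocyte and macrophage markers was between 16.0 and 20.2, with 4 detected, Cd68 (11.7 TPM), Ly6c2 (2.30 TPM) and Lyz2 (1.78 TPM) highest and Fcgr1 (0.0133 TPM) and Cd14 (0.00907 TPM) lowest. That of 8 neutrophil markers was between 1.44 and 3.24, with 1 detected, S100a9 (1.46 TPM), then Csf3r (0.424 TPM) and S100a8 (0.417 TPM), and Elane and Mpo at 0. That of 6 dendritic cell markers was between 0.505 and 1.28 with none detected, from Itgax (0.584 TPM), Flt3 (0.131 TPM) and Zbtb46 (0.0870 TPM) down to Siglech (0.0381 TPM) and Xcr1 (0.00841 TPM). That of 4 natural killer cell markers was between 5.02 and 7.72, with 1 detected, Eomes (4.00 TPM), and with Ncr1 (1.12 TPM), Klra8 (0.764 TPM) and Klrb1c (0.628 TPM) below. Of the CD8 T cell markers, Cd8b1 was at 40.0 TPM and Cd8a at 0.794 TPM. The part of these cells, or of the regulatory T cell markers that were lowest in replicate 4, in the levels of the Schlafen genes was not tested.

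**Figure D4:**
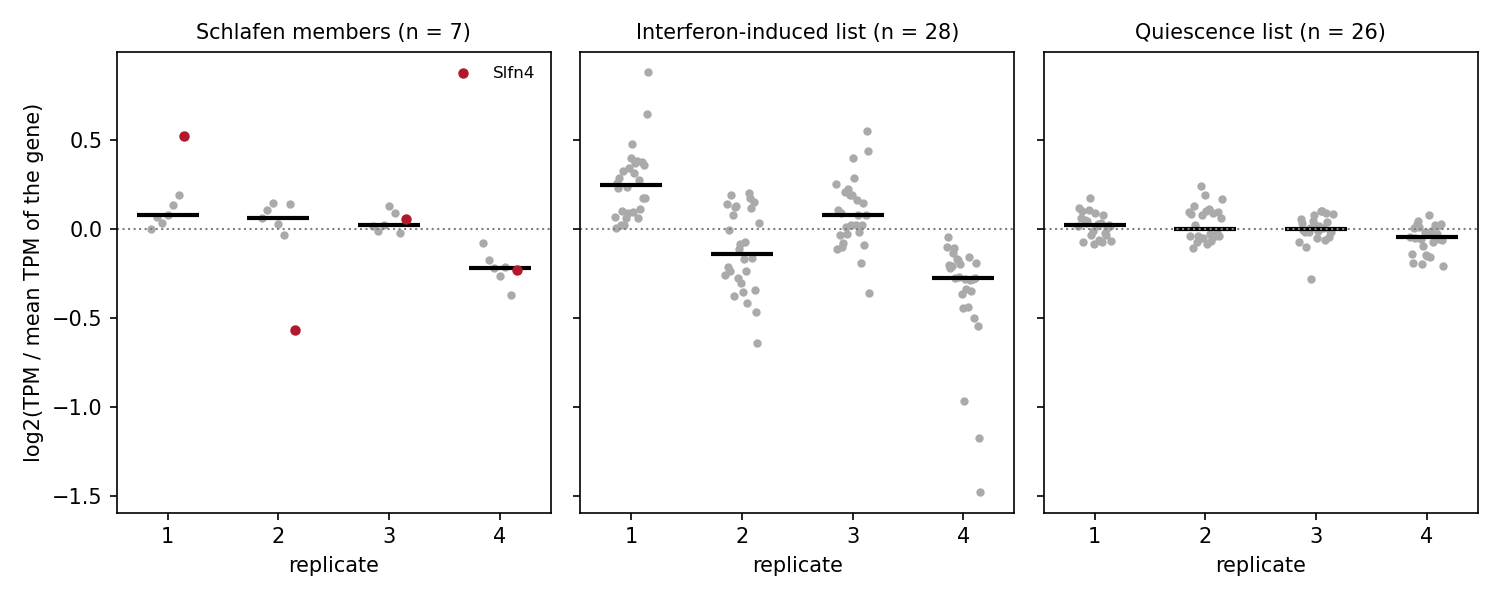
Log2 of each gene's TPM over its own mean, by library, for the 7 Schlafen genes, 28 interferon-induced genes and 26 detected quiescence genes, with 1 point per gene and a bar at the median. Replicate 4 is the lowest for 6 of the 7 Schlafen genes, the interferon-induced genes spread most, and Slfn4 (red) rests on few fragments.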

How the data were processed

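The authors deposited raw counts of fragments. Per the file headers, exons of GENCODE M13 on mm10 were counted with featureCounts 1.4.6-p4, from paired reads with both ends aligned, reverse-stranded, in alignments named for STAR. Fragments with several alignments or over several genes were left out by those settings. The labels call the assay total RNA, while the cited library protocol is titled for poly(A) RNA.

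Counts were turned into TPM here with the deposited exon lengths. GENCODE M21, also on mm10, gave symbols and coordinates for 50376 of 50600 genes (99.6%). Promoters came from RefSeq (GRCm38.p6, 8 records for the 7 members). Replicate numbers came from the labels, and the number in each file's header matched in 4 of 4 files.

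Variation between libraries was tested with R 4.3.3 and edgeR 4.0.16, after filterByExpr and TMM. The residual deviance of a glmQLFit that holds only an intercept was set against chi-square. P-values were adjusted by the Benjamini-Hochberg method over all genes at 0.05. The test was also run on counts simulated with its own fitted dispersion, which cannot show whether that dispersion holds in the real data. DESeq2 1.42.0 gave an alternative. Other values used Python 3.11.15, numpy 2.4.6 and pandas 2.3.3. The alternatives covered thresholds, scaling, length, filters and leaving out each library.

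The members and lists were chosen with earlier results of these data known. Named genes are the members, their relatives, every T cell and regulatory T cell marker, the 3 highest and 2 lowest genes of each list, genes overlapping a member and the 3 genes most like each of the 2 highest members. Some of what the rule includes is not reported here by name. Mx1 and Ifi44 values by library, the genes called variable and the shared promoter run were chosen after values were seen. So were the interferon-induced genes named as highest in replicate 2. Promoter windows that overlap an annotated exon (Slfn5 and a second start of Slfn8) are not printed.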

Additional observations from a re-analysis of the deposited data

Results flagged for a closer look

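Of 28 values by library that were looked at, 2 had a library far from the other 3, with a gap to the nearest of 92.5% and 87.3% of the whole range; chance gives about 1 in 20 such groups. The median TPM of 4 natural killer cell markers was 0.701 in replicate 4, against 1.13, 1.10 and 1.11 in replicates 1 to 3. The median TPM of Cd8a and Cd8b1 was 18.6 in replicate 1, against 21.1, 20.8 and 20.97 in replicates 2 to 4. None of the 7 Schlafen genes had such a library.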

How the results depend on the processing

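Of 54 ratios of neighbouring members recomputed, 52 kept their direction, and the exceptions were those of Slfn8 to Slfn5 (-0.41) and Slfn3 to Slfn9 (-0.37) in counts without length correction. The number of detected members was 6 at thresholds of 0.5 and 2 TPM, in CPM, over protein-coding genes and without any 1 library. The share of Slfn1 and Slfn2 was 62.2% of counts, 84.0% with 200 bases taken off each length and 81.2% with shared 50-base stretches taken off, an alternative chosen after seeing the data, and 82.5% to 83.1% without 1 library. Variable genes numbered 88 with no filter on low counts and 60 to 85 without 1 library, lowest without replicate 4, against 142, with 0 members called in each setting. Of the interferon-induced list 6 varied with no filter and 5 to 11 without 1 library, counts added after seeing the data. The quiescence median was 220.6 CPM, a scale without length correction. Where the cause of such a shift is not given by the setting itself, it was not tested. No paired analysis was possible because there is 1 group. Slfn4, with 10 to 22 fragments, is limited by depth.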
